A study of Mus musculus with 15 samples.

Results

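The 10 genes described here encode factors that make, assemble and export antibody in B cells: Jchain, Mzb1, Ell2, Eaf2, Pou2af1, Txndc5, Fkbp11, Edem1, Hid1 and Tmed6. They were chosen by gene symbol, and all 10 were found among the 21761 genes of the deposited expression table. Poly(A) RNA was sequenced from splenic B cells of female C57BL/6J wild-type mice in 15 libraries, 3 in each of 5 groups. The CD138+ GSK-J4 and CD138+ DMSO groups and the GL7+ GSK-J4 and GL7+ DMSO groups came from CD43- cells grown for 3 days with the stimuli LPS, IL-2 and IL-5 and either 250 nM GSK-J4 or its solvent DMSO. They were then enriched with magnets for CD138, a surface marker of plasmablasts and plasma cells, or for GL7, a marker of activated B cells. The naive group was CD43- cells that were neither stimulated nor treated. GSK-J4 inhibits KDM6A and KDM6B, the enzymes that remove methyl groups from lysine 27 of histone H3, and the study asked how this affects B cell differentiation. The mice carried no genetic change, so the drug was the treatment in every comparison with DMSO, and its other targets in these cells were not measured. Each replicate number named a mouse, except in 1 CD138+ GSK-J4 library, called replicate 4, which was tied to no mouse. Magnetic enrichment leaves other cells in a fraction, and in such bulk samples more cells of a type and more RNA per cell cannot be told apart.

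When a B cell becomes a plasma cell, it switches from membrane-bound to secreted antibody and builds a large endoplasmic reticulum (ER). Pou2af1 (OCA-B) is a coactivator that binds Oct factors at the octamer sequence of immunoglobulin promoters, and Ell2 is an elongation factor of RNA polymerase II that favours the secreted form of the heavy chain transcript. Eaf2 is a binding partner of the ELL proteins. The J chain protein links IgM and IgA units into polymers, and Mzb1 is an ER protein that works with the chaperone GRP94 in antibody assembly. Txndc5 is a thiol isomerase and Fkbp11 a prolyl isomerase of the ER, and Edem1 helps to send misfolded glycoproteins to degradation. Tmed6 belongs to the p24 family of cargo receptors between ER and Golgi. Hid1 is a Golgi-associated protein known from work on regulated secretion in worms and neuroendocrine cells.

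Start regions were available for 8 of the genes in a RefSeq table of the mouse build GRCm38.p6, with 13 windows from 250 bases before to 50 bases after a transcription start. Mzb1 and Hid1 had none there. Those of Ell2 and Pou2af1 are shown because both genes were higher with GSK-J4 in both fractions, that of Jchain as the J chain gene, and window 3 of Txndc5 because it shares a motif with Pou2af1. Capitals mark, in Pou2af1 and Txndc5, the letters TGACGTGG of the unfolded protein response element and TGCAAAT of the octamer, in Ell2 the CCAAT box, and in Jchain CACGT, the reverse complement of ACGTG. The windows are Pou2af1 on chr9:51213440-51213739 (plus strand), Txndc5 on chr13:38527865-38528164 (minus strand), Ell2 on chr13:75707234-75707533 (plus strand) and Jchain on chr5:88527848-88528147 (minus strand).
Pou2af1: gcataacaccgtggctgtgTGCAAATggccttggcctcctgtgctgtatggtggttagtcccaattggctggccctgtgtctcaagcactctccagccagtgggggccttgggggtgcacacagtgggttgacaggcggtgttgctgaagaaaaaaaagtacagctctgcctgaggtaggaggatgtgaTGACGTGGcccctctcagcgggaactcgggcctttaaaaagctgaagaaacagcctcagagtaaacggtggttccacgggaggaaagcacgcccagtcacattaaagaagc
Txndc5: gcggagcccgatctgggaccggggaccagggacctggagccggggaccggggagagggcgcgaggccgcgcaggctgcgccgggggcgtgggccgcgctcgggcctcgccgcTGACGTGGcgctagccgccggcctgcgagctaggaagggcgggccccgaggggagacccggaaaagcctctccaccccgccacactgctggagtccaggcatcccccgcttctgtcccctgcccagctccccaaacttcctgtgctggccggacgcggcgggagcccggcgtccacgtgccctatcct
Ell2: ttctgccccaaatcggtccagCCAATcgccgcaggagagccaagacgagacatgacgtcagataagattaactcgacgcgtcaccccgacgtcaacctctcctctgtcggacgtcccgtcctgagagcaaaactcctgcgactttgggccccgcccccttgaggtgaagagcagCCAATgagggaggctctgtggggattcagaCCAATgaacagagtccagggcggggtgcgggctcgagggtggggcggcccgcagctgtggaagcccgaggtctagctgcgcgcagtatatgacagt
Jchain: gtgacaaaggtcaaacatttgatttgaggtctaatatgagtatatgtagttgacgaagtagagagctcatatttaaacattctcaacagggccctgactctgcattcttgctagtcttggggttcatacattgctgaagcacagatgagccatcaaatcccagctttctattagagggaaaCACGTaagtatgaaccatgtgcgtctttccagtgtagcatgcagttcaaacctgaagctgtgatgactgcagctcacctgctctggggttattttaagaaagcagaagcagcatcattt

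Motifs were searched on both strands and were chosen with results of these data known. TGACGTGG stood in the Pou2af1 window and in window 3 of the 3 Txndc5 windows, and in 0.676% of all 32851 windows of the table. Its first base lay 61 bases before the Pou2af1 start and 138 bases before that Txndc5 start. TGACGTGG contains both ACGTG, found in 19.6% of all windows, and CGTGG, the reverse complement of CCACG, found in 32.8%. The octamer ATGCAAAT was in no window of the 8 genes and in 1.74% of all windows, and its shorter form TGCAAAT was in that of Pou2af1 and in 4.02% of all. CCAAT occurred 3 times in the Ell2 window, at 229, 76 and 46 bases before the start, and on either strand at least once in 37.4% of all windows. CCAAT or its reverse complement ATTGG also stood in the windows of Pou2af1 and Edem1, in all 3 of Eaf2 and in window 2 of Fkbp11. The ER stress element, CCAAT and CCACG separated by 9 bases, was in none of the 13 windows and in 0.119% of all, and ATTGG and CCACG separated by 1 base was likewise in none and in 0.0365% of all. A match describes these letters and shows no binding.

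Depth was recovered from the step size of the values and ran from 1318002 reads in naive replicate 2 to 13190022 in naive replicate 1, with a mean of 9198123. These are the smallest depths that make the reads whole, so they and the read numbers given for naive cells are the lowest the values allow. The CD138+ libraries carried the markers of their label. The summed level of 7 plasma cell markers was 1479–1613 RPKM (reads per kilobase of gene length, scaled to each library's depth) in CD138+ GSK-J4 libraries, 1363–1488 in CD138+ DMSO, 469.6–518 in GL7+ GSK-J4, 379–401 in GL7+ DMSO and 258–294 in naive. Most of each sum was Xbp1 and Irf4. Sdc1, which encodes CD138, averaged 40.1 RPKM in CD138+ GSK-J4, 32.6 in CD138+ DMSO, 2.88 in GL7+ GSK-J4, 1.37 in GL7+ DMSO and 3.13 in naive libraries. Irf4 averaged 127 RPKM in GL7+ DMSO and 211 in naive libraries, so Irf4 and Sdc1 went against the order of the sum there. Between GL7+ DMSO and naive libraries the means of Prdm1, Xbp1, Cd28, Tnfrsf17 and Slamf7 followed it. Over all groups only those of Prdm1, Xbp1 and Slamf7 did. Cd28 averaged 4.76 RPKM in CD138+ GSK-J4 and 7.56 in CD138+ DMSO, and 0.802 in GL7+ GSK-J4 and 0.853 in GL7+ DMSO. Tnfrsf17 averaged 11.8 RPKM in CD138+ GSK-J4 and 12.5 in CD138+ DMSO. GL7 is a sugar epitope with no transcript of its own to check. The sum of 7 B cell markers was 822–867 RPKM in CD138+ GSK-J4, 1052–1112 in CD138+ DMSO, 1308–1495 in GL7+ GSK-J4, 1738–1831 in GL7+ DMSO and 3680–4417 in naive libraries. Cd3e, the defining T cell marker, was at 0 in all 12 cultured libraries, and NK cell markers summed to at most 0.816 RPKM in them. Of the other T cell markers, Cd3d, Cd3g, Cd4 and Cd8a stayed under 1 RPKM in these libraries. The group means of Cd2 there ran from 44.1 to 81.0 RPKM and those of Lck from 0.892 to 3.81.

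All 10 genes were expressed at their highest in the CD138+ fractions and at their lowest in naive cells. Jchain stood at 1696, 1738 and 1735 RPKM in the CD138+ GSK-J4 libraries, 1608, 1529 and 1636 in CD138+ DMSO, 329.8, 377 and 351 in GL7+ GSK-J4, 272, 284 and 244 in GL7+ DMSO, and 32.9, 39.3 and 41.8 in naive cells. Mzb1 stood near it, at 1527, 1608 and 1704 RPKM in CD138+ GSK-J4 and 1615, 1646 and 1674 in CD138+ DMSO. Its levels were 650.2, 699 and 675 RPKM in GL7+ GSK-J4, 626, 644 and 568 in GL7+ DMSO, and 122, 131 and 138 in naive cells. These 2 genes took places 9 and 10 among all genes by mean RPKM in CD138+ GSK-J4 cells, and places 11 (Jchain) and 6 (Mzb1) in CD138+ DMSO cells. Their libraries overlapped in both groups.

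**Figure D1:**
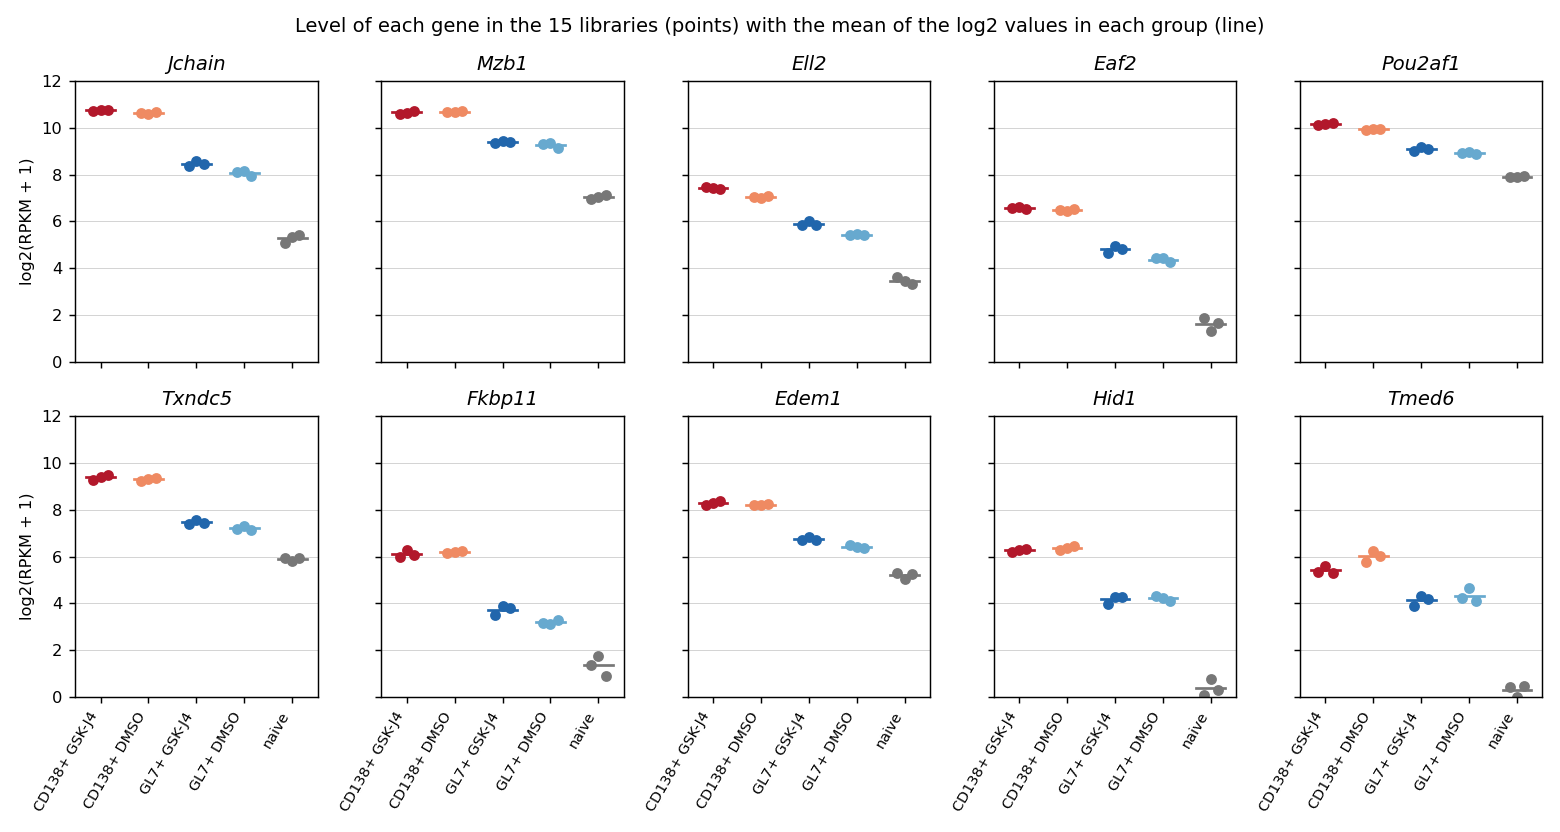
Level of each of the 10 genes as log2(RPKM + 1), with 1 point per library and a line at the mean of the log2 values in each of the 5 groups. In every panel the 6 CD138+ libraries lie above the 6 GL7+ libraries, and these lie above the 3 naive libraries.

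Pou2af1, Ell2 and Eaf2, the genes of the set that act in transcription, spanned a wide range of levels. Pou2af1 stood at 1106, 1157 and 1183 RPKM in CD138+ GSK-J4, 965, 987 and 1002 in CD138+ DMSO, 520.2, 572 and 547 in GL7+ GSK-J4 and 479, 493 and 474 in GL7+ DMSO. At 235, 236 and 246 RPKM it was the most abundant of the 10 in naive cells. Ell2 measured 176, 172 and 167 RPKM in CD138+ GSK-J4 and 131, 127 and 136 in CD138+ DMSO. In GL7+ cells Ell2 had 55.8, 63.4 and 57.4 RPKM with GSK-J4 and 41.7, 42.6 and 41.4 with DMSO, against 11.4, 9.86 and 9.13 in naive cells. For both genes the GSK-J4 libraries lay above the DMSO libraries of the same fraction without overlap. Eaf2 reached 93.7, 98.2 and 92.0 RPKM in CD138+ GSK-J4, 87.7, 87.0 and 92.7 in CD138+ DMSO, 24.1, 30.2 and 26.9 in GL7+ GSK-J4 and 20.5, 20.4 and 18.2 in GL7+ DMSO. In naive cells Eaf2 was at 2.71, 1.48 and 2.20 RPKM, on 5 to 92 reads per library.

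Among the ER folding and quality control factors, Txndc5 was at 617, 681 and 719 RPKM in CD138+ GSK-J4 and 601, 644 and 661 in CD138+ DMSO. It stood at 165, 188 and 174 RPKM in GL7+ GSK-J4, 146, 159 and 139.8 in GL7+ DMSO, and 59.6, 55.9 and 61.2 in naive cells. Edem1 had 292, 316 and 334 RPKM in CD138+ GSK-J4, 292, 296 and 307 in CD138+ DMSO, 102, 114 and 105 in GL7+ GSK-J4, 88.3, 82.7 and 80.9 in GL7+ DMSO and 38.4, 31.9 and 37.6 in naive cells. For both genes the CD138+ groups overlapped, and the GL7+ groups did not. Fkbp11 measured 62.5, 77.8 and 65.6 RPKM in CD138+ GSK-J4 and 69.9, 72.6 and 73.4 in CD138+ DMSO. Its levels were 10.2, 13.6 and 13.1 RPKM in GL7+ GSK-J4, 8.03, 7.67 and 8.72 in GL7+ DMSO, and 1.59, 2.36 and 0.881 in naive cells, the last on 4 to 27 reads.

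Hid1 and Tmed6, the trafficking genes, were expressed in all cultured cells and close to 0 in naive cells. Hid1 stood at 71.8, 77.3 and 79.6 RPKM in CD138+ GSK-J4, 77.1, 82.0 and 87.0 in CD138+ DMSO, 14.7, 18.4 and 18.4 in GL7+ GSK-J4 and 18.8, 17.5 and 16.2 in GL7+ DMSO. Tmed6 had 39.4, 47.3 and 38.4 RPKM in CD138+ GSK-J4, below its 53.9, 74.6 and 63.8 in CD138+ DMSO, and 13.7, 18.9 and 17.1 in GL7+ GSK-J4 and 17.7, 24.3 and 16.2 in GL7+ DMSO. Hid1 was at 0.068, 0.679 and 0.242 RPKM in naive cells, on 3 to 5 reads per library, and Tmed6 was at 0.351, 0 and 0.375 RPKM, on 0 to 4 reads, so no ratio to naive cells is given for either. The coefficient of variation of Tmed6 was 11.8% in CD138+ GSK-J4, 16.2% in CD138+ DMSO, 16.1% in GL7+ GSK-J4 and 22.2% in GL7+ DMSO, while that of Ell2 did not exceed 6.81% in these groups.

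Ordered by RPKM, the set ran in CD138+ GSK-J4 cells from Jchain and Mzb1 over Pou2af1, Txndc5, Edem1, Ell2, Eaf2, Hid1 and Fkbp11 to Tmed6. Of these neighbours only Jchain and Mzb1, and Hid1 and Fkbp11, had libraries that overlapped. In CD138+ DMSO cells Mzb1 came before Jchain, and the other 8 kept this order. Mzb1 and Jchain, Eaf2 and Hid1, and Fkbp11 and Tmed6 overlapped as neighbours there. In GL7+ cells Mzb1 and Pou2af1 came before Jchain, with both GSK-J4 and DMSO, and Fkbp11 came last. Eaf2, Tmed6 and Hid1 overlapped as neighbours in GL7+ DMSO cells, and Hid1 and Tmed6 in GL7+ GSK-J4 cells. In naive cells Pou2af1 led, before Mzb1 and Txndc5, and Jchain and Edem1 overlapped behind them, as did Eaf2 and Fkbp11, and Hid1 and Tmed6.

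Together the 10 genes took 1.40% ± 0.0536 of all assigned reads in CD138+ GSK-J4 libraries and 1.29% ± 0.0322 in CD138+ DMSO libraries (SD, n = 3 each). The share was 0.455% ± 0.0259 in GL7+ GSK-J4, 0.379% ± 0.0156 in GL7+ DMSO and 0.132% ± 0.0044 in naive libraries (SD, n = 3 each). This share weights long transcripts more, since it counts reads and not reads per length.

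**Figure D2:**
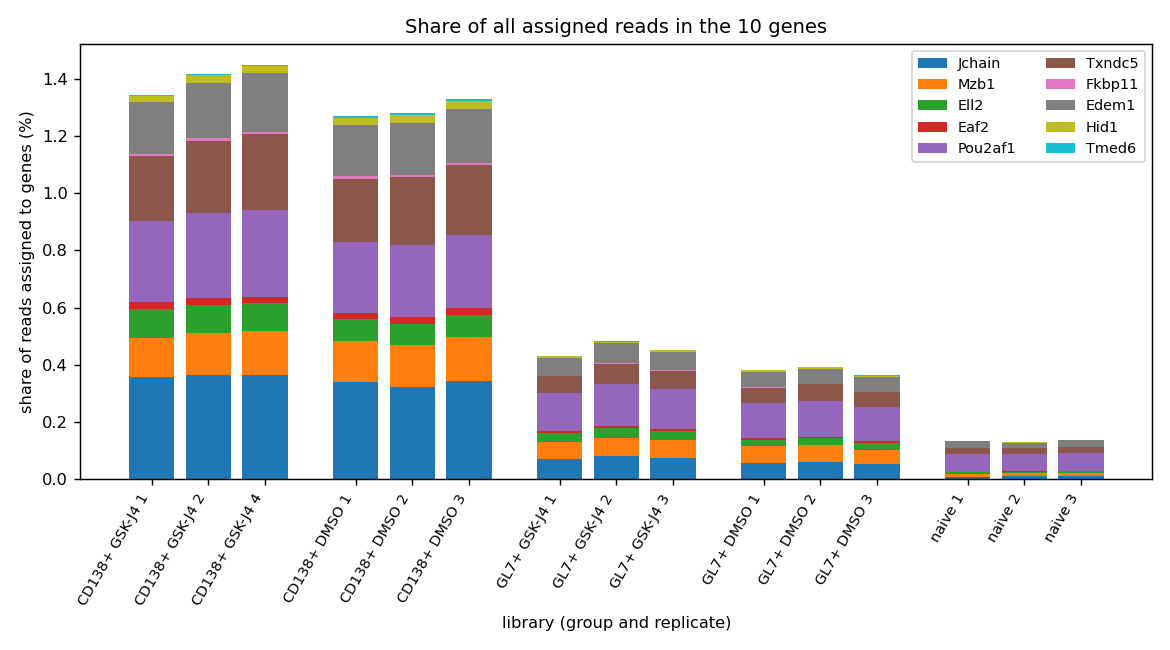
Share of all reads assigned to genes that fell on the 10 genes (percent), with 1 stacked bar per library, grouped from CD138+ GSK-J4 to naive. The CD138+ GSK-J4 bars reach 1.35% to 1.45%, the CD138+ DMSO bars 1.27% to 1.33%, and the naive bars 0.127% to 0.136%.

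The first comparison asked whether these factors differ in CD138+ cells cultured with GSK-J4. Ell2 and Pou2af1 rose and Tmed6 fell, and the other 7 genes did not pass the test. Thus 2 of 10 genes were higher, where 4.61% of all 10866 tested genes were, and 1 of 10 was lower, where 8.61% were (limma on log2(RPKM + 1), Benjamini-Hochberg adjusted p below 0.05). The median log2 change was 0.08 over the 10 genes and -0.03 over all tested genes. Of all calls 501 of 1437 were higher, and 613 of 1313 were under quantile normalization.

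Ell2 averaged 172 ± 4.32 RPKM in CD138+ GSK-J4 cells and 131 ± 4.55 in CD138+ DMSO cells (SD, n = 3 each), a ratio of 1.31 and a log2 change of 0.38 ± 0.07 (SE, adjusted p = 0.0018). It was higher in both mice that had a library of each treatment, by 0.42 and 0.44 on the log2 scale. Pou2af1 averaged 1149 ± 38.8 RPKM with GSK-J4 and 985 ± 18.3 with DMSO (SD, n = 3 each), a log2 change of 0.22 ± 0.05 (SE, adjusted p = 0.0085), and was likewise higher in both mice. These 2 calls held under all 25 alternatives tried.

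Tmed6 averaged 41.7 ± 4.91 RPKM in CD138+ GSK-J4 cells and 64.1 ± 10.4 in CD138+ DMSO cells (SD, n = 3 each), a log2 change of -0.60 ± 0.17 (SE, adjusted p = 0.03). It was lower in both mice with a pair of libraries. In a fit with each mouse as a block the call ended (adjusted p = 0.1), and so it did without CD138+ GSK-J4 replicate 1 (0.087) or 4 (0.099) or CD138+ DMSO replicate 2 (0.13) or 3 (0.078), with log2 changes of -0.57, -0.55, -0.49 and -0.60. With a pseudocount of 0.1 its adjusted p was 0.4, and with no filter on low values it was 0.11.

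For the 7 genes that did not pass, the 95% confidence intervals of the log2 change bound what the design leaves possible. Those of Jchain ran from -0.06 to 0.29, of Mzb1 from -0.16 to 0.11, of Txndc5 from -0.07 to 0.23 and of Edem1 from -0.08 to 0.23. Those of Eaf2 (-0.16 to 0.33), Hid1 (-0.38 to 0.17) and Fkbp11 (-0.41 to 0.27) were wider. Jchain averaged 1723 ± 23.1 RPKM with GSK-J4 and 1591 ± 55.8 with DMSO (SD, n = 3 each), without overlap but with an adjusted p of 0.39.

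In GL7+ cells the question was the same. Jchain, Ell2, Eaf2, Pou2af1, Txndc5, Fkbp11 and Edem1 rose with GSK-J4, and none of the 10 fell. So 7 of 10 genes were higher, where 5.81% of all tested genes were, and 0 of 10 were lower by the same limma test, where 7.71% were. At an unadjusted p below 0.05, 8 of the 10 passed, all higher, but no share of all tested genes is given for that level. The median log2 change was 0.30 over the set and -0.01 over all tested genes. Of all calls 631 of 1469 were higher, and 979 of 1669 were under median-ratio scaling.

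**Figure D3:**
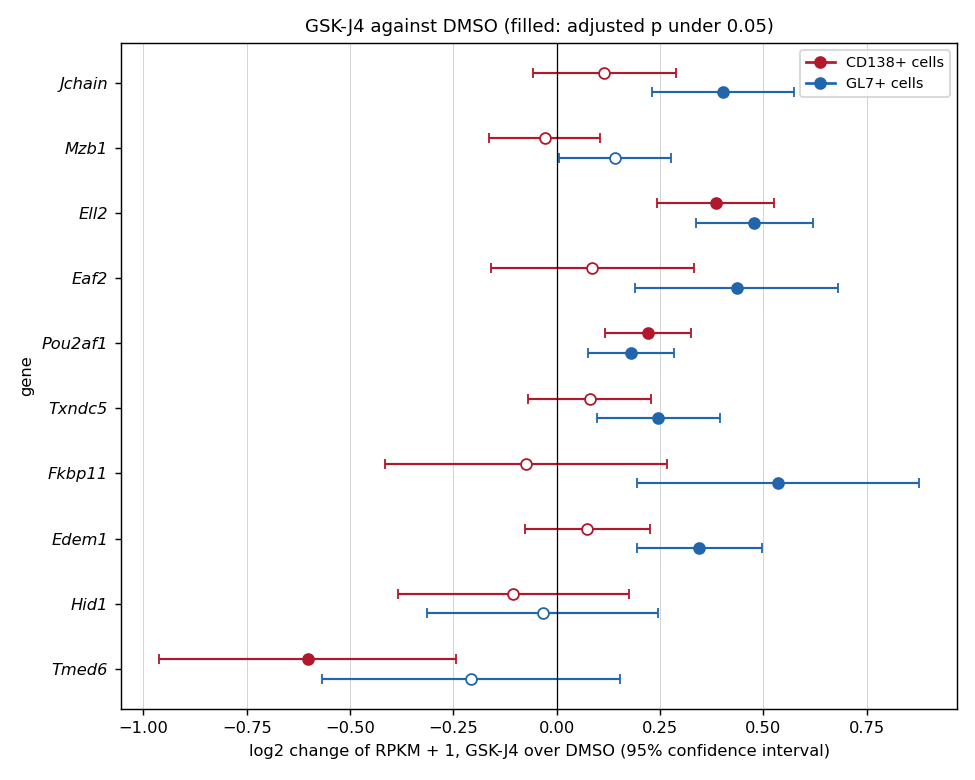
Log2 change of RPKM + 1 with GSK-J4 over DMSO for each of the 10 genes in CD138+ cells (upper point) and GL7+ cells (lower point), with 95% confidence intervals. Filled points passed an adjusted p of 0.05, which 3 genes did in CD138+ cells and 7 in GL7+ cells.

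Jchain averaged 353 ± 23.5 RPKM in GL7+ GSK-J4 cells and 267 ± 20.9 in GL7+ DMSO cells (SD, n = 3 each), a ratio of 1.32 and a log2 change of 0.40 ± 0.08 (SE, adjusted p = 0.0053). Ell2 averaged 58.8 ± 4.01 RPKM with GSK-J4 and 41.9 ± 0.621 with DMSO (SD, n = 3 each), a ratio of 1.40 and a change of 0.48 ± 0.07 (SE, adjusted p = 0.00063). Edem1 averaged 107 ± 6.15 RPKM with GSK-J4 and 84.0 ± 3.88 with DMSO (SD, n = 3 each), a ratio of 1.27 and a change of 0.35 ± 0.07 (SE, adjusted p = 0.0061). Each was higher with GSK-J4 in 3 of 3 mice, and these 3 calls held under all 25 alternatives.

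The other 4 calls depended on single libraries. Fkbp11 averaged 12.3 ± 1.82 RPKM with GSK-J4 and 8.14 ± 0.53 with DMSO (SD, n = 3 each), a ratio of 1.51 and the highest log2 change of the 10 at 0.54 ± 0.16 (SE, adjusted p = 0.038). Eaf2 had a log2 change of 0.44 ± 0.11 (SE, adjusted p = 0.022), Txndc5 of 0.25 ± 0.07 (SE, 0.032) and Pou2af1 of 0.18 ± 0.05 (SE, 0.026). All 4 were higher in 3 of 3 mice. Without GL7+ GSK-J4 replicate 2 or 3, or without GL7+ DMSO replicate 3, none of the 4 passed, which left 3 of the 10 genes. Without GL7+ DMSO replicate 1 Eaf2 passed and Pou2af1 (adjusted p = 0.088), Txndc5 (0.1) and Fkbp11 (0.11) did not. Fkbp11 also missed the threshold without GL7+ DMSO replicate 2 (0.11) and without any 1 of the 3 CD138+ DMSO libraries (0.051 to 0.052), which enter this comparison through the shared estimate of the spread, the filter on low values and the adjustment. With no filter on low values 4 of the 10 genes passed.

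Mzb1 averaged 675 ± 24.5 RPKM with GSK-J4 and 613 ± 39.4 with DMSO (SD, n = 3 each). Its change of 0.14 ± 0.06 (SE) did not pass (adjusted p = 0.16), although it was higher in 3 of 3 mice. Hid1 and Tmed6 had overlapping groups, with log2 changes of -0.03 (95% confidence interval -0.31 to 0.25) and -0.21 (-0.57 to 0.15). Eaf2 overlaps Iqcb1 on the GRCm38.p6 map, and Iqcb1 stood at 11.5 to 12.5 RPKM in GL7+ GSK-J4 and 9.31 to 10.96 in GL7+ DMSO. The strand setting is not given, so reads of such partners cannot be told apart.

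Of the 7 plasma cell markers 4 rose in the same GL7+ comparison. Sdc1 averaged 2.88 ± 0.496 RPKM with GSK-J4 and 1.37 ± 0.152 with DMSO (SD, n = 3 each), a log2 change of 0.71 (adjusted p = 0.019). Prdm1, Irf4 and Xbp1, transcription factors of the plasma cell programme, changed by 0.40 (adjusted p = 0.021), 0.39 (0.00072) and 0.34 (0.029). The other 3 did not pass, with -0.04 (0.86) for Cd28, 0.07 (0.84) for Tnfrsf17 and 0.04 (0.77) for Slamf7. The calls of Sdc1, Prdm1 and Xbp1 ended when single GL7+ libraries were left out, with adjusted p up to 0.081, 0.082 and 0.11, and the log2 change of Sdc1 was 0.31 with a pseudocount of 5. The calls of Prdm1 ended without GL7+ GSK-J4 replicate 2 or GL7+ DMSO replicate 2 or 3, and those of Sdc1 and Xbp1 without GL7+ GSK-J4 replicate 2 or 3 or GL7+ DMSO replicate 1 or 3. The summed B cell markers were lower with GSK-J4 in both fractions without overlap, as given above. The T cell sum, nearly all of it Cd2, was 42.4–51.8 RPKM in GL7+ GSK-J4 and 55.7–61.5 in GL7+ DMSO libraries, and 70.0–78.1 in CD138+ GSK-J4 and 79.6–85.7 in CD138+ DMSO libraries. Lck, the only other T cell marker above 1 RPKM in GL7+ libraries, averaged 3.81 RPKM with GSK-J4 and 3.18 with DMSO there. The dendritic cell sum, nearly all of it Flt3, was 20.8–21.5 RPKM in GL7+ GSK-J4 and 30.95–32.8 in GL7+ DMSO libraries, and 5.19–6.58 in CD138+ GSK-J4 and 9.48–10.7 in CD138+ DMSO libraries. The other 4 dendritic cell markers were under 1 RPKM in all of these, with Clec9a at 0 in GL7+ libraries. The erythroid and platelet sum, mostly Hbb-b1, was 8.85–9.61 RPKM in GL7+ GSK-J4 and 5.40–6.77 in GL7+ DMSO libraries. The part of these shifts in the changes of the 10 genes was not tested. In CD138+ cells the log2 change was 0.29 for Sdc1, 0.16 for Prdm1, 0.10 for Irf4 and 0.16 for Xbp1, and none of these passed (adjusted p = 0.28 to 0.36). Tnfrsf17 (-0.07, 0.83) and Slamf7 (0.08, 0.43) did not pass either, and Cd28 fell by 0.58 on the log2 scale (0.0033).

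Whether the response to GSK-J4 differed between CD138+ and GL7+ cells was tested as an interaction. No gene of the 10 passed in limma, where 0.966% of all tested genes did in either direction. At an unadjusted p below 0.05, for which no share of all tested genes is given, 4 of the 10 passed. These were Jchain (-0.29), Eaf2 (-0.35), Fkbp11 (-0.61) and Edem1 (-0.27), given as the log2 change in CD138+ cells minus that in GL7+ cells, with adjusted p of 0.28, 0.37, 0.24 and 0.23. By limma's voom on recovered reads Eaf2 (adjusted p = 0.038) and Fkbp11 (0.019) passed, and Fkbp11 also in a fit of these 4 groups alone (0.04). For Ell2 the difference had a 95% confidence interval of -0.29 to 0.11, and for Pou2af1 of -0.11 to 0.19.

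Changes between the fractions were larger than those with GSK-J4. CD138+ DMSO cells had higher levels of all 10 genes than GL7+ DMSO cells, by log2 changes of 1.03 to 3.00, where 21.8% of all tested genes were higher and 36.9% lower. Here the median log2 change was 1.96 over the set and -0.10 over all tested genes. Of all calls 2374 of 6379 were higher, and 3014 of 6074 were under median-ratio scaling. Fkbp11 averaged 72.0 ± 1.87 RPKM in CD138+ DMSO cells and 8.14 ± 0.53 in GL7+ DMSO cells (SD, n = 3 each), a ratio of 8.84 (log2 change 3.00 ± 0.16, SE, adjusted p = 1.3e-09). Jchain followed with a ratio of 5.97 (2.57 ± 0.08, SE, adjusted p = 1.6e-11) and Pou2af1 came last with 2.04 (1.03 ± 0.05, SE, adjusted p = 4.4e-10).

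With GSK-J4 in both fractions, CD138+ cells again had higher levels of all 10 genes than GL7+ cells, by 1.07 to 2.39 on the log2 scale. Of all tested genes 24% were higher and 39% lower in this comparison, and the median log2 change was 1.66 over the set and -0.10 over all. Fkbp11 had a ratio of 5.57, Jchain of 4.89, Hid1 of 4.44, Txndc5 of 3.82, Eaf2 of 3.49, Edem1 of 2.94, Ell2 of 2.92, Tmed6 of 2.52, Mzb1 of 2.39 and Pou2af1 of 2.10. These libraries also enter the comparisons with DMSO, so the values are given side by side only.

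**Figure D4:**
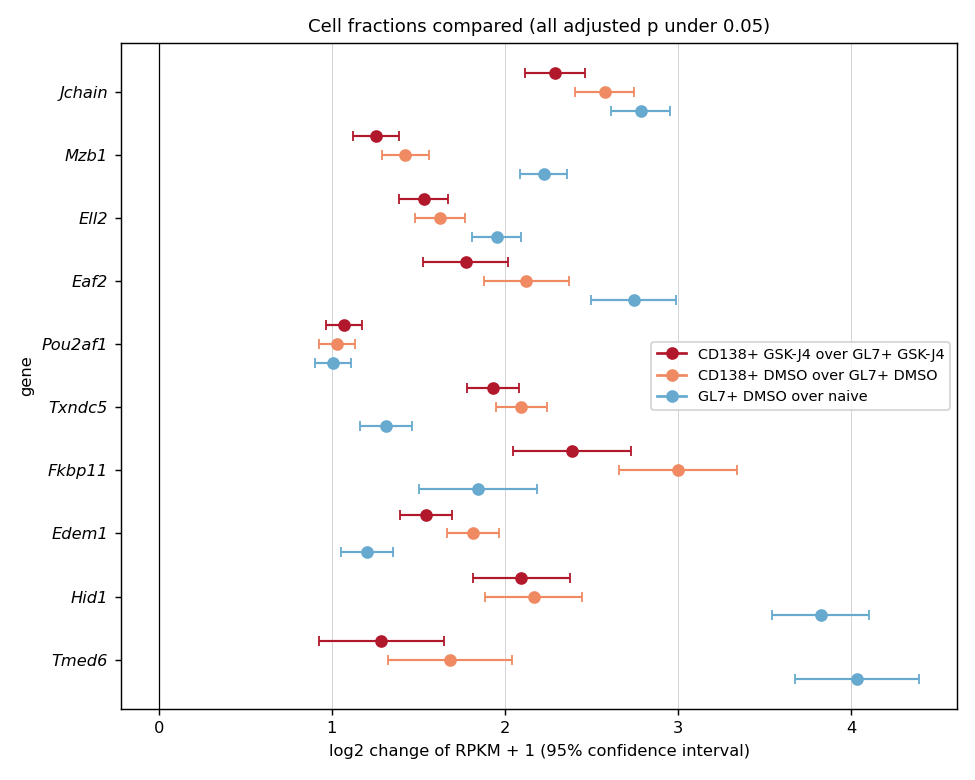
Log2 change of RPKM + 1 for each of the 10 genes, with 95% confidence intervals, in CD138+ GSK-J4 over GL7+ GSK-J4 cells, CD138+ DMSO over GL7+ DMSO cells and GL7+ DMSO over naive cells, from top to bottom. All points lie above 0, and those of Hid1 and Tmed6 over naive cells rest on at most 5 naive reads per library and depend on the pseudocount.

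The set was also higher in stimulated than in resting cells. Most marker sums of other cells were lower in cultured than in naive libraries. The T cell sum was 42.4–85.7 RPKM in cultured and 190–197 in naive libraries. Most of it was Cd2 (mean 169 RPKM in naive), while Cd3d, Cd3e and Cd3g averaged 0.849, 0.786 and 0.511 there. The myeloid sum was 1.46–4.32 in cultured and 58.7–95.5 in naive libraries, and the erythroid and platelet sum 0.766–9.61 and 70.1–85.9. The dendritic cell sum was 25.5–29.0 in naive libraries, 30.95–32.8 in GL7+ DMSO, 20.8–21.5 in GL7+ GSK-J4 and 5.19–10.7 in CD138+ libraries. Within it Flt3 averaged 6.35 RPKM in naive and 31.6 in GL7+ DMSO libraries, while Itgax, Clec9a, Siglech and Zbtb46 were higher in naive. The part of these markers in the result was not tested. GL7+ DMSO cells had higher levels of all 10 genes than naive cells, where 41.3% of all tested genes were higher and 40.3% lower. The median log2 change was 2.09 over the set and 0.01 over all tested genes. Eaf2 had a ratio of 9.25, Jchain of 7.02, Fkbp11 of 5.05, Mzb1 of 4.70, Ell2 of 4.14, Txndc5 of 2.51, Edem1 of 2.33 and Pou2af1 of 2.02. The log2 change depended on the pseudocount for the genes that are lowest in naive cells, and over all alternatives it ran from 1.80 to 3.19 for Eaf2, 1.00 to 2.49 for Fkbp11, 2.08 to 6.79 for Hid1 and 2.21 to 6.11 for Tmed6. Between CD138+ DMSO and naive cells all 10 genes were again higher, where 39.9% of all tested genes were higher and 43.5% lower, and the median log2 change was 4.25 over the set and -0.05 over all. Jchain had a ratio of 41.9 (log2 change 5.36 ± 0.08, SE, adjusted p = 2.1e-16), while Pou2af1 had 4.12 (2.04 ± 0.05, SE, adjusted p = 1.5e-14). Over the alternatives the log2 change ran from 4.03 to 9.02 for Hid1 and from 3.71 to 7.84 for Tmed6.

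The partners of these genes were followed in 5 lists. Among 17 elongation factors and octamer partners, 3 were higher and 2 lower in CD138+ cells with GSK-J4, where 4.61% of all tested genes were higher and 8.61% lower. The higher ones were Aff1 (log2 change 0.31, adjusted p = 0.01), Ccnt1 (0.27, 0.034) and Cstf2 (0.20, 0.03). Aff1 is a scaffold of the super elongation complex, Ccnt1 a cyclin of P-TEFb, and Cstf2 a factor of transcript cleavage that acts in the same heavy chain switch as Ell2. Aff3 (-0.85, 0.00015), a relative of Aff1, and the P-TEFb kinase Cdk9 (-0.21, 0.023) fell. In GL7+ cells, where 5.81% of all tested genes were higher and 7.71% lower, Eaf1, the paralog of Eaf2, was higher (0.26, 0.049), and Aff3 (-0.60, 0.0023) and the P-TEFb inhibitor Hexim1 (-0.25, 0.01) were lower. The median over the list was 0.05 in CD138+ cells and -0.05 in GL7+ cells. Ell, the paralog of Ell2, had changes of 0.11 (adjusted p = 0.59) and -0.07 (0.76) in CD138+ and GL7+ cells, and Pou2f2, the Oct-2 partner of Pou2af1, had changes of -0.08 (0.61) and -0.21 (0.13). With mice as blocks 1 gene of this list was higher and 1 lower in CD138+ cells, and Aff1 missed the threshold (0.066). The Ccnt1 call ended without any 1 of the 6 CD138+ libraries (0.07 to 0.11). That of Cstf2 ended without CD138+ GSK-J4 replicate 1 or 2 or CD138+ DMSO replicate 2 or 3 (0.078 to 0.13), and that of Cdk9 without CD138+ GSK-J4 replicate 2 or 4 or CD138+ DMSO replicate 1 or 2 (0.058 to 0.096). The Eaf1 call in GL7+ cells ended without any 1 of the 12 cultured libraries (0.055 to 0.2) and that of Hexim1 without GL7+ GSK-J4 replicate 2 (0.052), while both Aff3 calls held under all 25 alternatives.

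In the chaperone list around BiP and GRP94, 10 of 17 genes were higher in GL7+ cells with GSK-J4 and 0 lower, with a median log2 change of 0.27, where 5.81% of all tested genes were higher. Hsp90b1, which encodes GRP94, the partner of Mzb1, averaged 1183 ± 73.1 RPKM with GSK-J4 and 842 ± 18.6 with DMSO (SD, n = 3 each), a change of 0.49 (adjusted p = 0.0013). Manf, an ER-resident factor induced by ER stress, changed by 0.42 (adjusted p = 0.0013) and Hyou1, an exchange factor of BiP, by 0.40 (0.0026). Leaving out single libraries or changing the settings left 6 to 10 genes of the list higher. In CD138+ cells 4 of the 17 were higher and 1 was lower (median 0.12), where 4.61% of all tested genes were higher and 8.61% lower. The higher ones included Dnajb9 (0.39, adjusted p = 0.033), a BiP cochaperone, Calr (0.30, 0.0028), which encodes calreticulin, and Hsp90b1 (0.25, 0.043). Cnpy3 fell by 0.86 on the log2 scale (adjusted p = 3.3e-06). The Hsp90b1 call in CD138+ cells ended in 15 of 25 alternatives, among them each one that left out a CD138+ library, and its log2 change was 0 under quantile normalization. The Dnajb9 call ended without CD138+ GSK-J4 replicate 1 or 2 or CD138+ DMSO replicate 2 or 3 (0.067 to 0.14), which left 1 or 2 genes of the list higher, as did leaving out either of the other 2 CD138+ libraries. The Calr and Cnpy3 calls held under all 25 alternatives.

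Of 21 tested thiol and prolyl isomerases of the ER, 4 were higher in GL7+ cells with GSK-J4 and 0 lower, where 5.81% of all tested genes were higher. Over the alternatives 2 to 6 were higher. Creld2, an ER protein, averaged 149.8 ± 5.15 RPKM with GSK-J4 and 100.4 ± 3.63 with DMSO (SD, n = 3 each), a change of 0.57 (adjusted p = 8.5e-05). Pdia6 changed by 0.30 (0.018) and Pdia3 by 0.29 (0.008), both protein disulfide isomerases. The Pdia6 call ended without GL7+ GSK-J4 replicate 2 or 3 or GL7+ DMSO replicate 1 or 3 (0.053 to 0.08). In CD138+ cells only 1 of the 21, Fkbp2, a prolyl isomerase like Fkbp11, was higher (0.23, adjusted p = 0.028). That is near the share over all tested genes, of which 4.61% were higher there. The Fkbp2 call ended with mice as blocks (0.085) and without CD138+ GSK-J4 replicate 1 or 4 or any CD138+ DMSO replicate (0.064 to 0.096). Of 20 genes of ER mannosidases and ER-associated degradation, 3 were higher and 1 lower in GL7+ cells, where 5.81% of all tested genes were higher and 7.71% lower. Edem3, a paralog of Edem1, rose by 0.34 (adjusted p = 0.021) and Man1a, a Golgi mannosidase, fell by 0.18 on the log2 scale (0.033), while the change of Edem2 was 0.13 (0.23). Ube2g2, a ubiquitin-conjugating enzyme, rose by 0.19 (0.037) and Derl1, a channel component, by 0.17 (0.05). Over the alternatives 0 to 8 genes of this list were higher in GL7+ cells, with 1 when mice were blocks. The Edem3 call ended without GL7+ GSK-J4 replicate 2 or GL7+ DMSO replicate 2 or 3 (0.059 to 0.1), that of Man1a without GL7+ GSK-J4 replicate 3 or any GL7+ DMSO replicate (0.074 to 0.15), and those of Ube2g2 and Derl1 in 12 and 16 alternatives, among them each that left out GL7+ GSK-J4 replicate 2 or 3 or a GL7+ DMSO library. In CD138+ cells none of the 20 passed in limma, and 7 had an unadjusted p below 0.05, for which no share of all tested genes is given. By the other settings 0 to 8 were higher, with 7 higher without naive replicate 2, which enters only through the shared spread, the filter and the adjustment. The log2 change of Edem2 was -0.06 (adjusted p = 0.67) and that of Edem3 0.16 (0.25) there. Of 9 tested p24 cargo receptors, 1 was higher in GL7+ cells (Tmed2, 0.17, adjusted p = 0.049) and 1 was lower in CD138+ cells (Tmed8, -0.26, 0.047). These shares are near those over all tested genes (5.81% higher in GL7+ cells and 8.61% lower in CD138+ cells). Both calls ended in most alternatives, that of Tmed8 without any 1 of the 12 cultured libraries (0.051 to 0.13) and that of Tmed2 without any 1 of them except GL7+ GSK-J4 replicate 1 (0.054 to 0.2).

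Between CD138+ DMSO and GL7+ DMSO cells most genes of the 4 ER and transport lists were higher, like the 10 genes. All 20 genes of mannosidases and degradation were higher, with Man1b1 (log2 change 1.99), Edem2 (1.85), Derl3 (1.78) and Edem3 (1.74) ahead. Of the 17 chaperone genes 15 were higher, led by Hsp90b1 (1.51), Hspa13 (1.42) and Hyou1 (1.34), and Cnpy3 was lower (-1.21). Of the 21 isomerases 15 were higher, led by Creld2 (1.92), Txndc11 (1.74) and Pdia4 (1.65), and Tmx2 was lower (-0.28). Of 9 p24 receptors 6 were higher, with Tmed10 (1.15), Tmed3 (0.96) and Tmed2 (0.90) ahead, and Tmed8 was lower (-0.48). Of the 17 elongation and octamer genes 3 were higher (Pou2f1 0.73, Aff1 0.54 and Mllt3 0.40) and 6 lower, near the shares of all tested genes (21.8% higher and 36.9% lower). Those furthest down were Aff3 (-1.79), Pou2f2 (-0.92) and Ice2 (-0.73), while Ell (-0.12, adjusted p = 0.38) and Eaf1 (0.02, 0.87) did not pass. Pou2f2 thus stood at 42.6 ± 2.67 RPKM in CD138+ DMSO cells and 81.7 ± 3.37 in GL7+ DMSO cells (SD, n = 3 each), opposite to Pou2af1.

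For each of the 10 genes the most similar patterns outside the set were found over the 15 libraries, by the root mean square difference of log2(RPKM + 1) after each gene's mean was subtracted. Pou2af1 was nearest to Tmem248 (0.06) and Calr (0.09), Mzb1 to Rpn1 (0.08) and Cish (0.13), and Edem1 to Sec24a (0.09) and Rcbtb2 (0.09). Txndc5 was nearest to H13 (0.11) and Rprl1 (0.11), Ell2 to Ssr2 (0.13) and Hsp90b1 (0.14), and Jchain to Fam46c (0.20) and Bhlha15 (0.22). Eaf2 was nearest to Bhlha15 (0.13) and Xbp1 (0.22), Fkbp11 to Cpeb3 (0.27) and Creb3l2 (0.41), Hid1 to H1f0 (0.29) and Prdm1 (0.29), and Tmed6 to H1f0 (0.34) and Derl3 (0.37). Within the set, Txndc5 and Edem1 were nearest to each other, at 0.19. These distances describe libraries that share mice and scaling.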

How the data were processed

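Values are RPKM per gene from 15 poly(A) libraries, deposited by the authors for the mouse build mm9. The submitters' processing notes name TopHat2. No version of it, counting tool, annotation or strand setting is given in the sources used here. RPKM times length gave whole reads within 0.1 read for at least 99.9% of values up to 20 reads, which gave each library's depth as the smallest that makes the reads whole. A gene of low RPKM thus rests on few reads in naive replicate 2. Table columns were matched to samples by name. In the CD138+ GSK-J4 group, the header of 1 column carries the number 4, which fits no single sample, and no column fits the labelled replicate 3.

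The table held RPKM, so limma 3.58.1 in R 4.3.3 was used and no count test. The 10866 of 21761 genes that reached 1 RPKM in 3 or more libraries were tested on log2(RPKM + 1), which understates changes of low genes. All 15 libraries entered 1 fit with 5 group means and an intensity trend for the variance, with Benjamini-Hochberg p-values over all tested genes with a threshold of 0.05. In data simulated for CD138+ GSK-J4 against CD138+ DMSO, with 10866 genes tested, the fit recovered 100% of changes of 1 and 80% and 84% of changes of -0.5 and 0.5 (log2). Only genes of higher read numbers were changed, all genes had the same relative spread, and all 15 libraries had CD138+ means. These rates therefore do not cover genes with few reads or a larger spread. Replicates of each group differed by more than read sampling.

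Replicate numbers are mouse numbers in the labels, so same-numbered samples share a mouse. The median r of the deviations from the group mean was 0.07 over 26 pairs of the same mouse (-0.039 to 0.191) and -0.03 over 52 pairs of different mice. Alternatives were pseudocounts of 0.1 and 5, no filter, median-ratio scaling, quantile normalization, the mouse as a block, limma's voom on recovered reads, library weights, a fit of only the groups compared, and leaving out each library. A block without CD138+ GSK-J4 replicate 4 was added after seeing the data.

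The 10 genes, the lists and the motifs were chosen with earlier results of these data known. All 10 are named throughout. From each list, up to 3 genes per direction past the threshold were named, with Hsp90b1, Pou2f2, Eaf1, Ell, Edem2 and Edem3 in any case, and for each of the 10 genes the 2 nearest patterns, immunoglobulin segments left out. Symbols are those of the table. Sequences and neighbours are from RefSeq tables of GRCm38.p6, not the build of the values. Figures were drawn with matplotlib 3.10.9.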

Additional observations from a re-analysis of the deposited data

Results flagged for a closer look

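Of the partner genes, 2 differed between fractions in their response to GSK-J4 by the interaction test of limma. Of all tested genes 0.966% did so in either direction. The lists held 17 tested elongation and octamer partners, 21 isomerases, 17 chaperone genes, 20 degradation genes and 9 p24 receptors. Creld2 had a difference of -0.45 on the log2 scale (CD138+ minus GL7+, adjusted p = 0.022), which missed the threshold in 9 of 25 alternatives, among them those without CD138+ GSK-J4 replicate 2, any CD138+ DMSO replicate, GL7+ GSK-J4 replicate 2 or 3, or GL7+ DMSO replicate 1 or 3 (adjusted p up to 0.074). In GL7+ cells the change of Creld2 was 0.57, and in CD138+ cells Creld2 did not pass. Cnpy3, of the chaperone list, had a difference of -0.69 (adjusted p = 0.0075), which held in all 25 alternatives. In CD138+ cells Cnpy3 averaged 6.50 ± 0.301 RPKM with GSK-J4 and 12.6 ± 0.79 with DMSO (SD, n = 3 each), a change of -0.86. In GL7+ cells Cnpy3 averaged 26.9 ± 2.44 RPKM with GSK-J4 and 30.5 ± 1.58 with DMSO (SD, n = 3 each) and did not pass.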

How the results depend on the processing

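The calls for all 10 genes between fractions and against naive cells held under all 25 alternatives, as did those of Ell2 and Pou2af1 in CD138+ cells and of Jchain, Ell2 and Edem1 in GL7+ cells with GSK-J4. The count of genes past the threshold in GL7+ cells was 4 with no filter and 3 to 7 when single libraries were left out. In CD138+ cells it was 2 to 3. For the difference between fractions it was 2 by voom and 1 in the fit of only the groups compared. Directions near 0 turned for Mzb1 in CD138+ cells (-0.0696 to 0.0094 leaving out single libraries), Fkbp11 in CD138+ cells (0.0009 with library weights), Hid1 in GL7+ cells (0.0022 with median-ratio scaling, -0.0852 to 0.0685 leaving out single libraries), Ell in GL7+ cells (-0.1243 to 0.0097) and Eaf1 in CD138+ against GL7+ DMSO cells (-0.0246 to 0.0453). Of the plasma cell markers, those turning were Tnfrsf17 in CD138+ cells (0.0236 with the replicate block) and, in GL7+ cells, Cd28 (0.027 with quantile normalization, -0.0983 to 0.0042 leaving out single libraries), Slamf7 (-0.0131 to 0.0774) and Tnfrsf17 (-0.1569 to 0.1888). The causes were not tested. Mzb1 passed in GL7+ cells under quantile normalization (adjusted p = 0.018).

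The replicate block changed no call of the 10 genes other than that of Tmed6 in CD138+ cells (log2 change -0.55, adjusted p = 0.1). It leaves CD138+ GSK-J4 replicate 4 out of the estimate, and it gave 927 calls over all genes there, against 1437 without it. Over all alternatives the calls ran from 825 to 2688 in CD138+ cells, from 743 to 2968 in GL7+ cells (1469 in the fit reported) and from 18 to 832 for the difference (105). Naive replicate 2 had 1318002 reads, and the naive values of Eaf2, Fkbp11, Hid1 and Tmed6 rest on 0 to 5 reads there at that depth.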
